A study of Arabidopsis thaliana with 12 samples.

Results

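QQS (AT3G30720, probe set 256940_at) and ATKDSA2 (AT1G16340, probe set 262753_at) are 2 genes whose signal differed between chl1-5 and wild-type roots both after and before nitrate. They were chosen from the gene names in the annotation of the array, each has 1 probe set, and they are 2 of the 13286 loci named on the array, which holds 22746 probe sets besides its controls. Both were picked because of their genotype difference on these same arrays, and because it stood at both times. The genotype differences below are therefore a description and carry no test.

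QQS is an orphan gene, that is, a gene with no recognised relative outside Arabidopsis thaliana. Its small protein is known to alter the partition of carbon and nitrogen between starch and protein, and it binds a subunit of the nuclear factor Y transcription factor. Its transcript level is known to vary between Arabidopsis lines with the DNA methylation of the locus. ATKDSA2 encodes a synthase that makes the phosphorylated form of KDO, a sugar acid found in plants in the pectic polysaccharide rhamnogalacturonan II of the primary cell wall. A second Arabidopsis gene, AtkdsA1 (AT1G79500), encodes the same activity.

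Root RNA of 10-day-old plants was measured on 12 Affymetrix ATH1 arrays, 3 for each of 4 groups, which were chl1-5 at T0.5, wild type at T0.5, chl1-5 at T0 and wild type at T0. The line chl1-5 is a mutant of CHL1, a nitrate transporter and nitrate sensor of the plasma membrane, and both genotypes are of the Columbia ecotype. All plants were raised on 12.5 mM ammonium succinate without nitrate, the genotypes side by side on a shared mesh, and all spent 3 h in that nitrogen source at pH 5.5 and were washed. T0 roots were taken then, and T0.5 roots after 30 min with 25 mM KNO3 in place of the ammonium salt, so a time difference also holds the loss of ammonium and a transfer. Each array stands for about 900 seedlings pooled from 9 vessels. Arrays of the 4 groups with the same replicate number share an independent experiment, so the 12 arrays are not 12 independent experiments. The mutant is represented by a single line, and no second allele or complemented line was analysed here. No probe set was named CHL1 in the annotation used, so the mutated gene could not be picked out and was not checked. Whether a probe set without a named gene measures CHL1 was not tested.

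The deposited values are MAS5 signals, a brightness summary of each probe set on a linear scale. The trimmed means of the 12 arrays lay between 499.4 and 500.6, and their 40th percentiles between 98.3 and 111.2. A signal below the 40th percentile of its array is called dim here. RNA quality was read from control probe sets at both transcript ends. The 3' over 5' ratio for GAPDH lay between 0.97 and 1.24 in chl1-5 and between 0.86 and 1.38 in wild type, and that of ubiquitin between 1.99 and 2.14 in chl1-5 and between 1.68 and 2.24 in wild type. For actin it lay between 9.72 and 18.4 in chl1-5 and between 10.5 and 15.2 in wild type, so the ranges of the genotypes overlapped for all 3 controls. The actin ratios were far higher than those of the other controls in both genotypes, with a much weaker signal at the 5' end on every array. The overlap compares the genotypes and does not show that the RNA was intact. Of the 7 root markers listed, EXPA7, an expansin of root hair cells, was the only one with a named probe set. Its signal lay between 629.8 and 1409.7 in chl1-5 and between 627 and 1386.2 in wild type, and at T0.5 it fell by 0.73 relative to T0 in chl1-5 (limma adjusted p = 0.0334) and by 0.79 in wild type (adjusted p = 0.0172) on the log2 scale. Of the 7 shoot markers only RCA, which encodes rubisco activase, was named. It had signals of 538.9 to 657.7 in chl1-5 and 571.2 to 697.8 in wild type, so the ranges of the genotypes overlapped for both markers.

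QQS was bright in chl1-5 and dim in wild type. At T0.5 it had signals of 217.3, 253.8 and 225.5 in chl1-5 (replicates 1, 2 and 3), whereas wild type had 31.3, 63.1 and 20.8. At T0 the chl1-5 arrays had 238.1, 250.0 and 328.3, whereas wild type had 20.7, 48.1 and 44.9. No chl1-5 array came near a wild-type array. The lowest of the 6 chl1-5 signals (217.3) was 3.44 times the highest of the 6 wild-type signals (63.1). In root RNA taken as a whole, a higher level per cell and more cells that hold the transcript cannot be told apart.

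The log2 difference of QQS, chl1-5 minus wild type, was 2.75 at T0.5 and 2.92 at T0 (SE 0.39 each, 3 arrays in every group), so its signal was higher in chl1-5 by 6.71-fold and 7.59-fold. These folds are set against weak wild-type signals, which were dim on all 6 arrays. Set against the 40th percentile of the wild-type arrays instead, the chl1-5 signal was 2.27-fold higher at T0.5 and 2.47-fold higher at T0. The rank of the probe set moved in the same way. In chl1-5 between 52.6% and 61.8% of the probe sets on an array were dimmer than QQS, and in wild type between 19.6% and 32.5%. Brightness ranks describe probe sets and not the abundance of different transcripts.

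ATKDSA2 showed the opposite direction, dim in chl1-5 and bright in wild type. At T0.5 its signals were 25.7, 26.7 and 21.4 in chl1-5 (replicates 1, 2 and 3), whereas wild type had 313.5, 306.2 and 292.5. At T0 the chl1-5 arrays had 53.3, 10.9 and 39.7, whereas wild type had 296, 304.9 and 317.1. The highest chl1-5 signal (53.3) and the lowest wild-type signal (292.5) were 5.49-fold apart. The wild-type arrays were alike, and the chl1-5 T0 arrays were spread most widely, with replicate 2 the lowest of all 12.

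The log2 difference of ATKDSA2, chl1-5 minus wild type, was -3.63 (SE 0.44, n = 3 arrays per group) at T0.5 and -3.43 (SE 0.44) at T0, so its signal was 12.4-fold and 10.7-fold lower in chl1-5. The chl1-5 signals were dim on all 6 arrays, and the size of the fold rests on them. Without the chl1-5 T0 array of replicate 2 the difference at T0 was -2.73. Against the 40th percentile of the chl1-5 arrays, the wild-type signal was 2.88-fold higher at T0.5 and 2.91-fold higher at T0. Between 13.7% and 31.3% of the probe sets were dimmer than ATKDSA2 on a chl1-5 array, and between 58.8% and 61.2% on a wild-type array.

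**Figure D1:**
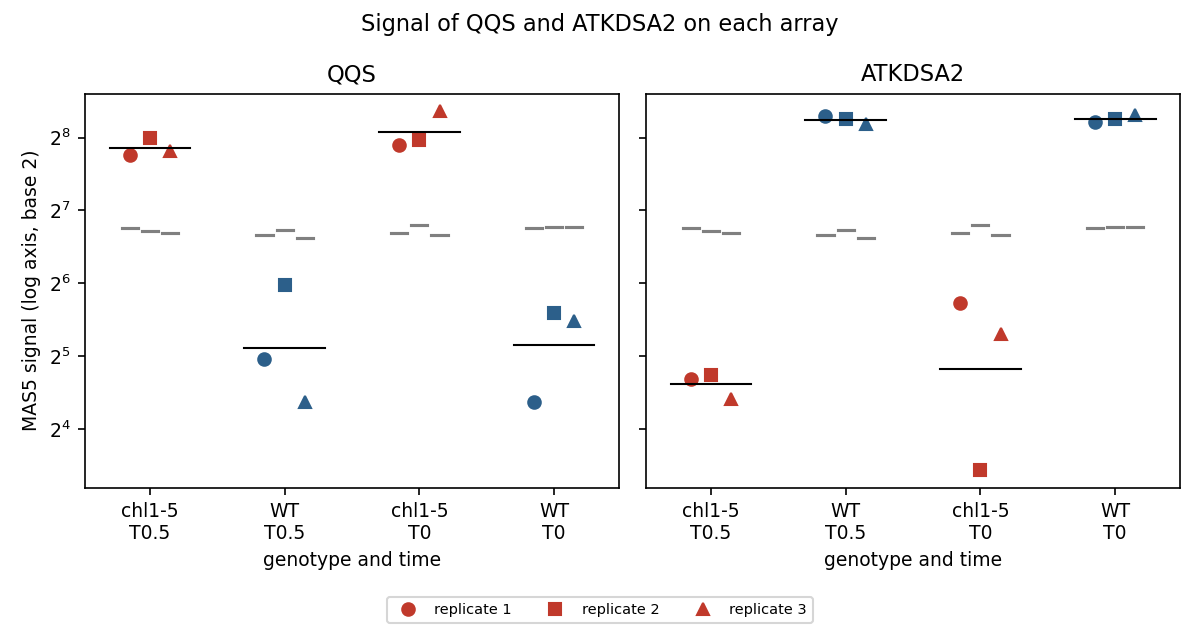
MAS5 signal (log axis) of QQS and ATKDSA2 on each of the 12 arrays by genotype (chl1-5 red, wild type blue) and time, with a marker shape per replicate, a black line at the mean of the log2 signals of each group and grey dashes at the 40th percentile of each array. QQS lies between 217.3 and 328.3 in chl1-5 and between 20.7 and 63.1 in wild type, and ATKDSA2 between 10.9 and 53.3 in chl1-5 and between 292.5 and 317.1 in wild type.

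The spread of the dim signals was uneven. Within a group of 3 arrays, the SD of the log2 signal of QQS was 0.12 in chl1-5 and 0.81 in wild type at T0.5, and 0.25 in chl1-5 and 0.68 in wild type at T0. For ATKDSA2 it was 0.17 in chl1-5 and 0.05 in wild type at T0.5, and 1.22 in chl1-5 and 0.05 in wild type at T0. The median SD within a group over all probe sets tested lay between 0.16 and 0.18, so the dim chl1-5 arrays of ATKDSA2 were spread widely at T0 and not at T0.5.

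The genotype difference kept its direction in every replicate number, each of which marks 1 experiment with both genotypes. For QQS the 3 differences, chl1-5 minus wild type, were 2.80, 2.01 and 3.44 at T0.5 and 3.52, 2.38 and 2.87 at T0 on the log2 scale (replicates 1, 2 and 3). For ATKDSA2 they were -3.61, -3.52 and -3.77 at T0.5, and -2.47, -4.81 and -3.00 at T0. At T0.5 the ATKDSA2 differences lay close together, whereas at T0 replicate 2 stood apart from the other 2.

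The order of the group means on the log2 scale was, for QQS, chl1-5 at T0 (8.07), chl1-5 at T0.5 (7.86), wild type at T0 (5.15) and wild type at T0.5 (5.11). For ATKDSA2 it was wild type at T0 (8.26), wild type at T0.5 (8.25), chl1-5 at T0 (4.83) and chl1-5 at T0.5 (4.61). Within each genotype the arrays of both times overlapped for each gene. Neighbours in these orders differed beyond their spread only across the genotype boundary.

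The time step within each genotype was small beside this. QQS stood at -0.22 (SE 0.39, 95% interval -1.07 to 0.64, adjusted p = 0.852) in chl1-5 and at -0.04 (SE 0.39, interval -0.90 to 0.82, adjusted p = 0.970) in wild type, T0.5 minus T0 on the log2 scale (limma, n = 3 arrays per group). For ATKDSA2 the values were -0.22 (SE 0.44, interval -1.17 to 0.74, adjusted p = 0.871) in chl1-5 and -0.01 (SE 0.44, interval -0.96 to 0.95, adjusted p = 0.994) in wild type (limma). Neither gene passed in either genotype, where 3.86% of the 14291 probe sets tested passed in chl1-5 and 5.58% in wild type. QQS was dim on all 6 wild-type arrays and ATKDSA2 on all 6 chl1-5 arrays. Each was bright enough to be tested only through its other genotype. In the dim genotype a missing pass therefore cannot show that a response was absent. The genes were picked knowing that the genotype difference stood at both times, so these tests are not independent evidence of a missing response, and the intervals reach changes of about 1 on the log2 scale. Each SE is fitted over all 4 groups, dim ones included, so an interval does not give the spread of its own genotype. For ATKDSA2 the log2 SD was 0.05 in wild type at each time and 1.22 in chl1-5 at T0. For QQS the wild-type groups were the more widely spread.

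A single array moved the time step of ATKDSA2 in chl1-5. Its signals there were 25.7, 26.7 and 21.4 at T0.5 against 53.3, 10.9 and 39.7 at T0, so replicates 1 and 3 stood lower at T0.5 and replicate 2 higher. Without the T0 array of replicate 2 the change was -0.91 (limma adjusted p = 0.0401), and without all arrays of replicate 2 it was -0.97 (adjusted p = 0.204). All 6 signals were dim. In wild type the steps of the 3 replicates were 0.08, 0.01 and -0.12 on the log2 scale.

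The difference of the time steps, chl1-5 minus wild type, was -0.18 for QQS (SE 0.56, 95% interval -1.39 to 1.04) and -0.21 for ATKDSA2 (SE 0.62, interval -1.56 to 1.14). Without the chl1-5 T0 array of replicate 2 the value for ATKDSA2 was -0.90. Of the sum of squares of the log2 signals over the 12 arrays, genotype held 90.8% for QQS and 92.3% for ATKDSA2. Time held 0.19% for QQS and 0.09% for ATKDSA2, the interaction 0.09% and 0.08%, and the spread within groups 8.94% and 7.50%. The median share of genotype over all probe sets tested was 2.27%. Of those, 2 had a larger share than QQS, ATKDSA2 among them, and 1 a larger share than ATKDSA2. Both genes were chosen for a genotype difference that stood at both times, so these shares and ranks are a description.

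**Figure D2:**
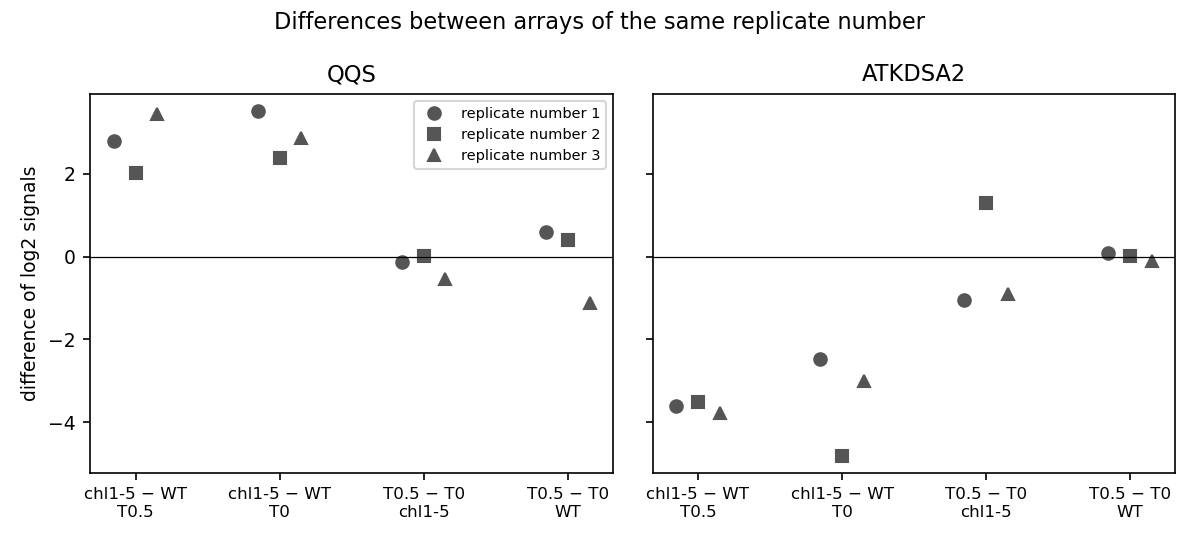
Differences of log2 signals between arrays of the same replicate number for QQS and ATKDSA2, first chl1-5 minus wild type at each time, then T0.5 minus T0 in each genotype, with a marker per replicate number. The genotype differences lie between 2.01 and 3.52 for QQS and between -4.81 and -2.47 for ATKDSA2, and the time differences lie on both sides of 0 in each genotype, from -1.11 to 0.60 for QQS and from -1.05 to 1.29 for ATKDSA2.

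Such a separation of the genotypes was rare on these arrays. Of 14291 probe sets, 6 (0.042%) had no overlap between the 6 chl1-5 and the 6 wild-type arrays, 2 with chl1-5 higher (0.014%) and 4 with chl1-5 lower (0.028%). QQS had the largest gap of those with chl1-5 higher, and the other, AT3G63340, had a gap of only 0.11 on the log2 scale. Of the 4 with chl1-5 lower, ATKDSA2 had a gap of 2.46, and 264371_at (gap 4.47) and 264348_at (gap 2.76), which have no named gene here and were singled out after their values were seen, had larger ones. The remaining one, 251042_at, had a gap of 0.02. Since the genes were chosen for this contrast, their place among the 6 is a description.

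As the background for these values, the adjusted p of limma called 0.224% of the probe sets (32) between genotypes at T0.5, 1 higher (0.007%) and 31 lower (0.217%) in chl1-5, and 0.028% (4) at T0, 1 higher (0.007%) and 3 lower (0.021%). With the replicate number as a block, 60 were called at T0.5, the 32 among them, and the same 4 at T0. With arrays left out the counts ranged from 2 to 33 at T0.5 and from 0 to 4 at T0. The 4 of T0 were also among those of T0.5, and they include QQS and ATKDSA2, whose calls follow from how they were chosen and support nothing. Those calls also rest on all 3 replicates. Without all arrays of replicate 1, or of replicate 3, neither gene was called at T0.5 or T0, and without replicate 2 ATKDSA2 was called at both times and QQS at neither. Without replicate 1 limma called 0 probe sets at T0, with 180 at an unadjusted p under 0.05. The 28 probe sets called at T0.5 alone in the fit without the block all had chl1-5 lower, with differences of -2.09 to -0.59 on the log2 scale, and their differences at T0 lay between -0.18 and 0.28. The 9 of these with a name were AT5G19970, AT5G53750, AT5G51830, AT5G01740, MDH, AT3G18560, AT1G72220, AT1G73920 and PGM. AT5G01740, for example, differed by -2.09 at T0.5 and by -0.04 at T0, and PGM, a phosphoglycerate mutase, by -0.90 at T0.5 and by 0.15 at T0.

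**Figure D3:**
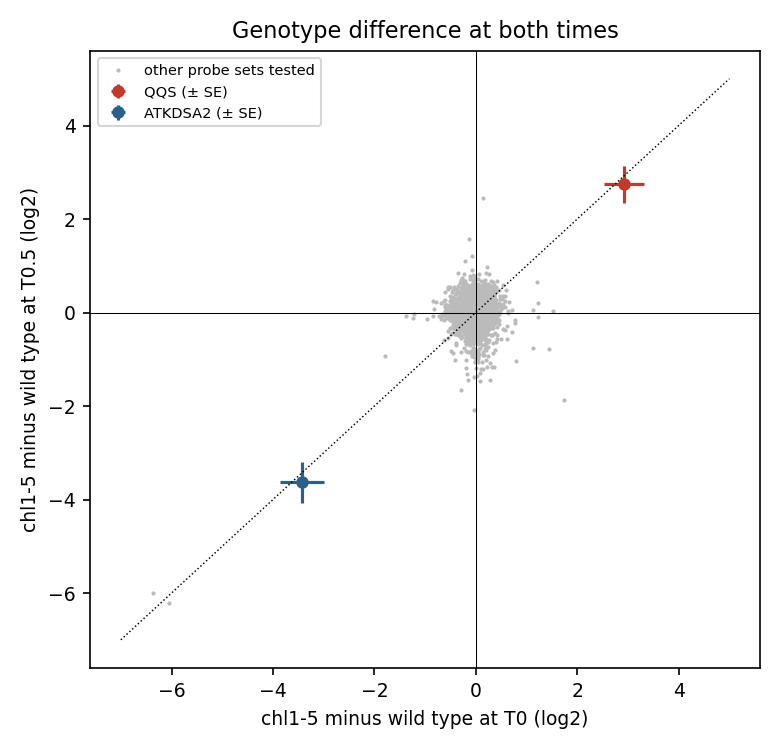
Log2 genotype difference, chl1-5 minus wild type, at T0 (horizontal) and T0.5 (vertical) for the 14291 probe sets tested (grey), with QQS in red and ATKDSA2 in blue (bars ± SE, 3 arrays per group) and a dotted line where both differences are equal. QQS (2.92 at T0, 2.75 at T0.5) and ATKDSA2 (-3.43 at T0, -3.63 at T0.5) lie on that line away from the cloud, and 264348_at and 264371_at lie farther out at the lower left.

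No other tested gene of the KDO and pectin pathway passed the test between genotypes. Of the 25 listed besides ATKDSA2, 5 had a named probe set and 3 were bright enough to be tested, and at T0.5 as at T0 limma called 0 of the 3, with none at an unadjusted p under 0.05, where 2.9% of all probe sets stood at T0.5 and 0.938% at T0. CKS, the enzyme that activates KDO by joining it to CMP, had signals of 614.9 to 845.9 at T0.5 in chl1-5 and 673.6 to 734.4 in wild type, a log2 difference of 0.09 (SE 0.15, adjusted p = 1.00), and differed by -0.11 (SE 0.15) at T0. SETH3, an arabinose phosphate isomerase upstream of KDO synthesis, differed by -0.03 (SE 0.10) at T0.5 and by -0.04 (SE 0.10) at T0. GME, a GDP-mannose epimerase that supplies the L-galactose of rhamnogalacturonan II, differed by 0.04 (SE 0.10) at T0.5 and by -0.10 (SE 0.10) at T0.

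The median difference of these 3 was 0.04 at T0.5 and -0.10 at T0, against 0.02 and -0.01 over all probe sets tested. LpxA and LpxB, enzymes of lipid A synthesis, the bacterial lipid that carries KDO, were dim and not tested. LpxA had signals of 39.9 to 61.4 in chl1-5 and 22.1 to 66.6 in wild type, and LpxB 21.6 to 64.7 in chl1-5 and 2.6 to 44.4 in wild type. AtkdsA1, the paralog of ATKDSA2, had no named probe set in the annotation used and was not analysed here. Whether its transcript adds to the signal of 262753_at was not tested.

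Among genes of starch metabolism, the process tied to QQS, no tested gene passed between genotypes either. Of the 44 listed, 6 had a named probe set and 3 were tested, and limma called 0 of them at each time, with none at an unadjusted p under 0.05. PWD, a kinase that phosphorylates starch, differed by 0.26 (SE 0.13, adjusted p = 1.00) at T0.5 and by 0.07 (SE 0.13) at T0. Its signals at T0.5 were 293.1 to 314 in chl1-5 and 234.6 to 285.4 in wild type, with no overlap, as for 6.46% of all probe sets at that time. DPE1, the plastid disproportionating enzyme of starch breakdown, differed by -0.07 (SE 0.17) at T0.5 and by -0.17 (SE 0.17) at T0. SBE2.2, a starch branching enzyme, differed by 0.03 (SE 0.20) at T0.5 and by -0.09 (SE 0.20) at T0.

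The median difference of the 3 starch genes was 0.03 at T0.5 and -0.09 at T0. APL3 and APL4, subunits of ADP-glucose pyrophosphorylase, and the amylase AMY1 were dim and not tested. APL3 lay between 49.5 and 90.9 in chl1-5 and between 35.8 and 89 in wild type.

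Of 31 listed partners of QQS and genes of DNA methylation, DME, a DNA demethylase, was the only one with a named probe set, and it had 3, of which 2 were tested. Probe set 250836_at differed by 0.02 (SE 0.16) at T0.5 and by 0.12 (SE 0.16) at T0, and 250835_at by -0.02 (SE 0.27) at T0.5 and by 0.07 (SE 0.27) at T0. Neither passed limma at either time (adjusted p = 1.00), nor at an unadjusted p under 0.05. The third, 250834_at, was dim, with signals of 29.5 to 77.4 in chl1-5 and 55.1 to 77 in wild type.

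In the time step none of the tested genes of these lists passed limma in chl1-5 or wild type, and none had an unadjusted p under 0.05, where 17% of all probe sets stood in chl1-5 and 19.3% in wild type. The median of the 3 KDO and pectin genes was 0.06 in chl1-5 and -0.14 in wild type. That of the 3 starch genes was -0.07 in chl1-5 and -0.26 in wild type. Over all probe sets tested the medians were -0.06 in chl1-5 and -0.09 in wild type.

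The tested loci next to ATKDSA2 on chromosome 1 had far smaller genotype differences than ATKDSA2 itself. Of the 5 loci on either side in the TAIR10.1 gene order, 4 had a named probe set and 2 were tested, and neither passed between genotypes by limma or had an unadjusted p under 0.05. AT1G16350, the next locus, which encodes an IMP dehydrogenase of purine synthesis, had signals of 1165.5 to 1306.4 in chl1-5 and 1201.3 to 1365.7 in wild type at T0.5. Its log2 difference was -0.05 (SE 0.10) at T0.5 and -0.19 (SE 0.10) at T0. AT1G16310, a cation efflux family gene 3 places before ATKDSA2, differed by -0.32 (SE 0.20) at T0.5 and by -0.20 (SE 0.20) at T0. AT1G16290 and AT1G16360 were dim in both genotypes.

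Around QQS on chromosome 3 only AT3G30730, 4 places after it, had a named probe set among the 10 nearest loci. It was dim, with signals of 2.6 to 18.5 in chl1-5 and 0.9 to 20.4 in wild type. The view was therefore widened, after these values were seen, to the 5 nearest tested loci on either side of each gene, and these values carry no test. For ATKDSA2 these reached 18 places before and 30 places after it. Their genotype differences lay between -0.63 and 0.23 at T0.5 and between -0.40 and 0.03 at T0. For QQS the nearest tested loci lay 81 places before and 179 places after it, and the 10 differences lay between -0.34 and 0.26 at T0.5 and between -0.18 and 0.24 at T0. None of the 20 loci separated the 6 chl1-5 from the 6 wild-type arrays.

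**Figure D4:**
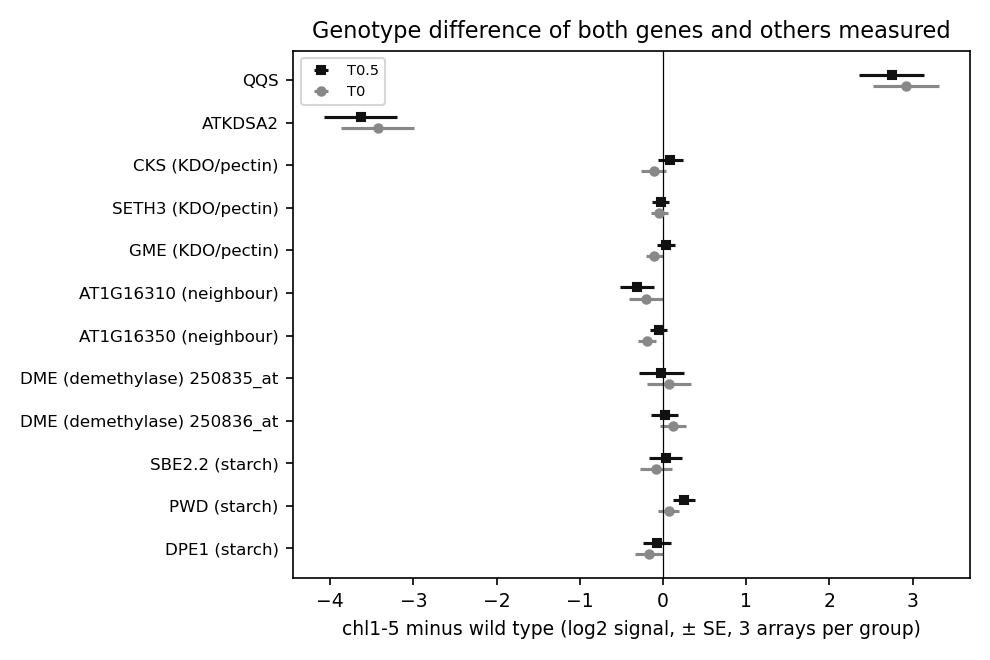
Log2 genotype difference, chl1-5 minus wild type (± SE, 3 arrays per group), at T0.5 (black squares) and T0 (grey circles) for QQS, ATKDSA2, the tested genes of the KDO and pectin, starch and DNA methylation lists and the tested neighbours of ATKDSA2. QQS lies near 2.75 and 2.92 and ATKDSA2 near -3.63 and -3.43, and the other probe sets lie between -0.32 and 0.26.

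By Pearson's r of the log2 signals over the 12 arrays, the probe sets most like ATKDSA2 were 264371_at (r = 0.91), 264348_at (0.84), AT1G16690 (0.80), AT4G18260 (0.79) and 255982_at (0.79). Their r is set largely by the step between the genotypes, which all arrays share. The first 2 have genotype differences larger than that of ATKDSA2, -6.22 and -5.99 at T0.5, and -6.04 and -6.37 at T0. AT4G18260 differed by only -0.39 at T0.5 and -0.55 at T0, and AT1G16690 by -0.34 at T0.5 and -0.51 at T0, none of them past limma's threshold (adjusted p = 1.00 for both at each time). AT1G16690 lies on chromosome 1 as ATKDSA2 does, beyond the 30 places after it that the loci above reached. Whether its place bears on its likeness was not tested. The probe set 264348_at also had a time step of 2.36 in chl1-5 (limma adjusted p = 0.0481) and 1.98 in wild type (adjusted p = 0.0782), where ATKDSA2 stood at -0.22 and -0.01. Its chl1-5 signals were 7.2 to 48.7 at T0, with 3 arrays dim, and 53.6 to 229.4 at T0.5, with 2 dim. In wild type they were 1554.1 to 1886.5 at T0 and 5492.3 to 7636.5 at T0.5, without overlap. Both steps share an SE of 0.59 fitted over all groups, so these adjusted p values do not show a response limited to chl1-5.

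The probe sets most like QQS were AT2G04845 (r = 0.86), 261056_at (0.84), AT2G20050 (0.78), 265872_at (0.77) and AT5G67490 (0.77). Their genotype differences were far smaller than that of QQS. AT2G20050 had the largest difference of the 5, 0.39 (SE 0.13) at T0.5, with 0.17 (SE 0.13) at T0, and none of the 5 passed limma at either time (adjusted p = 1.00 for each). By Spearman's rho in place of Pearson's r, 2 of the 5 for QQS and 1 of the 5 for ATKDSA2 remained, so these lists depend on the measure of likeness.

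**Figure D5:**
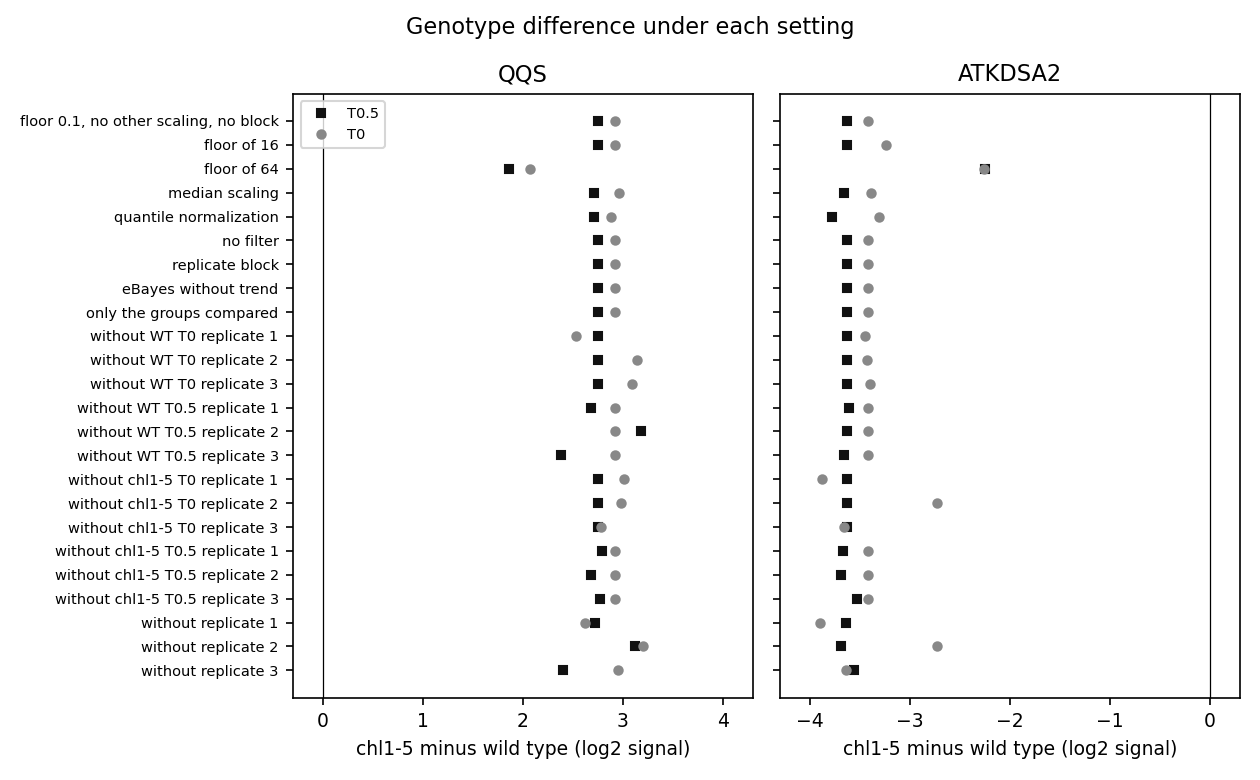
Log2 genotype difference of QQS and ATKDSA2, chl1-5 minus wild type, at T0.5 (black squares) and T0 (grey circles) under each processing setting and with arrays left out. QQS stays between 1.86 and 3.20 and ATKDSA2 between -3.90 and -2.25, with the smallest values at a signal floor of 64.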

How the data were processed

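The authors' deposited intensities are MAS5 signals on a linear scale, as the submitters' processing notes name that tool; its version is not given in the sources used here. Values under 0.1 were set to 0.1 before log2. Control probe sets (64) were dropped, and a probe set was tested if on 3 or more arrays it reached the 40th percentile of that array, which left 14291. The 4 group means were fitted over all 12 arrays with limma 3.58.1 under R 4.3.3 (eBayes with a mean-variance trend). Tests were two-sided, with Benjamini-Hochberg adjustment over all 14291 and a threshold of 0.05, and the code was tested on simulated data.

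Genes were named through the platform annotation and the TAIR10.1 gene table (13436 probe sets with 1 locus). Both genes, the lists and the tests were chosen with earlier results of these data known. Named were both genes, listed genes with a named probe set, the 5 loci on either side, the 5 probe sets most like each gene, and probe sets called between genotypes.

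Replicate numbers come from the titles and mark independent experiments. Deviations from the group means correlated positively for all 18 same-number pairs across groups (r from 0.21 to 0.77 across probe sets) and negatively for the 36 pairs of different numbers (r from -0.63 to -0.01). Deviations cancel out within a group, so the negative values follow on average from the positive ones and are no separate sign of pairing. Alternatives were the floor, the scaling, the filter, the replicate block, the moderation, the arrays in the fit and leaving arrays out. The number of arrays limits the precision.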

Additional observations from a re-analysis of the deposited data

How the results depend on the processing

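Each genotype difference of QQS and ATKDSA2 kept its direction under all 23 alternatives. A floor of 64 set every dim array to the floor and so moved all 4, to 1.86 at T0.5 and 2.07 at T0 for QQS and to -2.25 at T0.5 and -2.26 at T0 for ATKDSA2. With arrays left out, the QQS difference ranged from 2.38 to 3.18 at T0.5 and from 2.54 to 3.20 at T0, and that of ATKDSA2 from -3.70 to -3.54 at T0.5 and from -3.90 to -2.73 at T0. The ATKDSA2 time step in chl1-5 ranged from -0.97 to 0.24 and passed only without the T0 array of replicate 2 (-0.91, adjusted p = 0.0401), and its difference of time steps ranged from -0.96 to 0.26. The replicate block changes no estimate in this balanced design (QQS 2.75 at T0.5 and 2.92 at T0, ATKDSA2 -3.63 and -3.43), and the adjusted p of the time steps was 0.757 in chl1-5 and 0.955 in wild type for QQS and 0.800 and 0.991 for ATKDSA2, so no call on either gene changed. No gene of the KDO and pectin, starch or DNA methylation lists other than ATKDSA2, and no neighbouring locus, was called under any of the 23. The statements above on an unadjusted p under 0.05 for these genes hold for the limma fit without the block. With the block, 798 of all probe sets stood under 0.05 at T0.5 and 331 at T0, against 414 and 134 without it. The listed genes were not examined for this with the block. Over all probe sets, the 32 called between genotypes at T0.5 became 60 with the block and 2 to 33 with arrays left out. The 4 of T0 became 2 in a fit of the T0 arrays alone and 0 to 4 with arrays left out. At a floor of 64, 1 of the 5 probe sets most like QQS remained. Dim signals limit the sizes of both genotype differences.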
